A study of Mus musculus with 13 samples.

Results

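The interleukin-6 (IL-6) family and its signal chain were followed in mouse liver tumours through 10 genes chosen by name: the cytokines Il6, Osm and Lif, the receptor chains Il6ra, Osmr, Lifr and Il6st, the kinase Jak1, the transcription factor Stat3 and its feedback inhibitor Socs3. All 10 were among the 23361 gene symbols of the per-library tables. The tumours were hepatocellular carcinomas, cancers of the hepatocyte lineage, in mice of a mixed C57BL/6 and 129Sv background. All animals lacked Mst1 in the germline (Mst1-/-) and carried a floxed Mst2 (Mst2Flox/Flox) that an injected adenovirus with Cre removed in the liver, so both groups lacked these Hippo kinases. After ultrasound had shown tumours, animals were randomized to 9 days of intravenous lipid nanoparticles with an siRNA against Yap (siYap, 5 libraries) or against luciferase (siLuc, 8 libraries), a sequence with no target in the mouse. The comparison asks what lowering Yap does to the tumour transcriptome. Whether each library is an animal of its own is not in the labels, so the p-values speak only of spread among these libraries, part of which may be technical.

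IL-6 family cytokines share the receptor chain gp130, the product of Il6st. IL-6 binds Il6ra before it engages gp130, leukaemia inhibitory factor (Lif) pairs gp130 with Lifr, and oncostatin M (Osm) pairs it in the mouse mainly with Osmr. The bound Jak1 kinase then phosphorylates Stat3, which switches on acute phase genes in hepatocytes and Socs3, the inhibitor that blocks gp130 and its kinases. Stat3 is controlled by phosphorylation, which RNA levels do not show.

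The windows around the start sites of 4 of these genes, taken from RefSeq on GRCm38.p6 (250 bases before to 50 bases after the start), are shown for the gene with the largest fall (Lif), the gene with the largest rise (Il6ra), the Stat3 feedback gene (Socs3) and Stat3. Capitals mark a Stat-type motif, TTCNNNGAA, which reads the same on both strands, or the core of the binding site of Tead factors, the DNA-binding partners of Yap (GGAATG, or CATTCC on the other strand).
Lif, chr11:4257318-4257617, plus strand: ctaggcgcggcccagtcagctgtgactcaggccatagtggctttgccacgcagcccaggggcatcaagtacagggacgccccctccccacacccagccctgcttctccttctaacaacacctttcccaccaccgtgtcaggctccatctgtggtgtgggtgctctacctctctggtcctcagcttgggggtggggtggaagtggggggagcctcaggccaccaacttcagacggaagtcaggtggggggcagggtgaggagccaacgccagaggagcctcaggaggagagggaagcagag
Il6ra, chr3:89913147-89913446, minus strand: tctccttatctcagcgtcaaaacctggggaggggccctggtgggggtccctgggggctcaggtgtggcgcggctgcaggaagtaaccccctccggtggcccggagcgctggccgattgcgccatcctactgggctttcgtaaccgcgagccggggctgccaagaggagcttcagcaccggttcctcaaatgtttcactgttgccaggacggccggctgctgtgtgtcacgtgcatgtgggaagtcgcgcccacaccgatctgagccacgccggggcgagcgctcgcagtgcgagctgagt
Socs3, chr11:117969317-117969616, minus strand: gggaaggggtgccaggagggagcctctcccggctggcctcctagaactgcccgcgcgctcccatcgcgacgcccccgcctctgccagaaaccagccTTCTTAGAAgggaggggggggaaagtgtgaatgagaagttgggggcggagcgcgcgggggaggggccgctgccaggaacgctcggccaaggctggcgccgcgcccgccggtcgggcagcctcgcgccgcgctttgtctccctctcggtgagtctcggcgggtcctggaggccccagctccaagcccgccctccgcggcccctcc
Stat3, chr11:100939491-100939790, minus strand: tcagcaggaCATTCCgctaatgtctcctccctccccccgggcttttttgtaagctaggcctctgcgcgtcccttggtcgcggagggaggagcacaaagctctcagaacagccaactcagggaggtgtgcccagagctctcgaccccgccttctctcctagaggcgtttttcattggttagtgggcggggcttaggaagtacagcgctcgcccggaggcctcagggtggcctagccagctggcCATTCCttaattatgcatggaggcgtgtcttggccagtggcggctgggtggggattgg

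RefSeq gave 10 windows for 9 of the 10 genes, with a pair of windows for Lifr. The table has no window for Osm. The motif TTCNNNGAA was in 1 of the 10 windows, that of Socs3, starting at position -154 from the start site of that window. Of the 32851 windows of all genes 8.3% hold it. GGAATG in either direction was in 1 of the 10, that of Stat3, with 2 copies, and is held by 14.7% of all windows. No window held both motifs or overlapping copies. These matches describe letters and are not evidence of binding.

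The libraries held 23637021 to 37043914 fragments on genes. Yap1, the target of the siRNA, averaged 3.29 ± 0.845 FPKM (SD, n = 5) in siYap and 9.999 ± 1.37 FPKM (SD, n = 8) in siLuc tumours, where FPKM is fragments per kilobase of transcript, scaled for depth (log2 fold change -1.58, adjusted p = 2.36e-05 by edgeR), with no overlap between groups. Some libraries stood apart. siYap replicates 1 and 3 had the lowest totals and the most ribosomal precursor RNA (Rn45s), at 1160 and 1882 CPM (counts scaled to library size), against 479.5 to 811.8 in the other 11 libraries. siLuc replicate 8 was the male library: 4 Y-linked genes held 28874 of its fragments, and no other library had more than 11 there. Of 14 hepatocyte markers 3 rose and 2 fell (16.0% and 14.8% of all tested genes), and no marker was at 0. Their summed level was 9212 to 16360 FPKM in siYap and 10680 to 16450 FPKM in siLuc libraries. The libraries thus held hepatocyte RNA, which does not tell tumour from other liver tissue.

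Of the 10 genes, 9 passed the filter on low counts. Il6 did not. In siYap tumours 4 of the 9 rose (Il6ra, Lifr, Il6st and Jak1), 2 fell (Lif and Osmr), and Osm, Stat3 and Socs3 did not pass edgeR's quasi-likelihood test at an adjusted p of 0.05. Across all 15132 tested genes 30.8% were called, 16.0% higher and 14.8% lower in siYap, and the median log2 fold change of all tested genes was -0.003. The calls of Lif, Il6ra, Lifr and Jak1 held without any one library. Those of Il6st and Osmr did not.

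**Figure D1:**
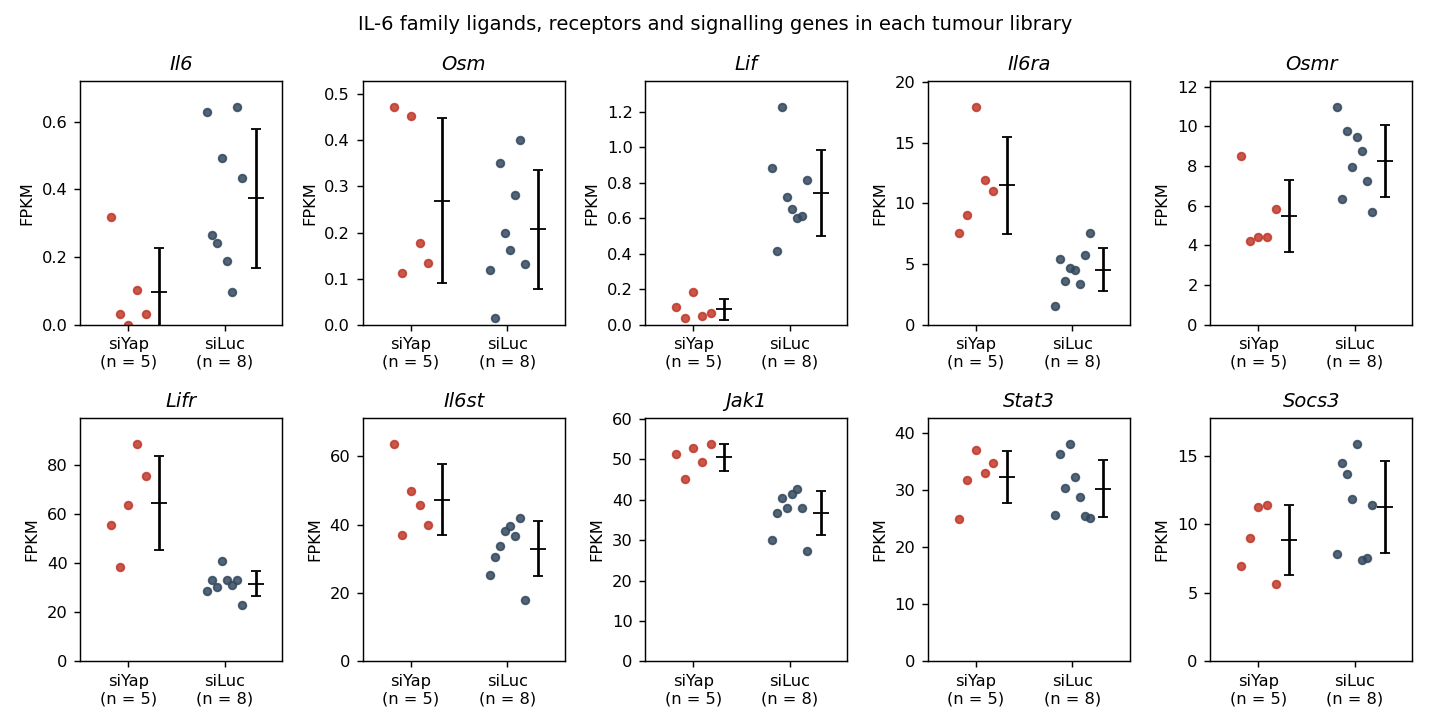
FPKM (vertical axes, from 0, one scale per gene) of the 10 genes in siYap (red, n = 5) and siLuc (dark, n = 8) libraries, 1 point per library, with mean and SD beside the points (the bar of Il6 is cut at 0). Lif lies lower and Jak1 higher in all siYap libraries than in any siLuc library, and Stat3 overlaps widely.

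Among the cytokines, Lif fell. Lif (GRCm38, as for all positions here, chromosome 11, 4257568 to 4272514) is made by stromal, immune and tumour cells and acts through Lifr and gp130. It was measured at 0.0998, 0.0376, 0.186, 0.0473 and 0.0636 FPKM in siYap replicates 1, 2, 3, 4 and 5, and in siLuc libraries at 0.418 at the lowest, 0.686 at the median and 1.23 FPKM at the highest. Every siYap library lay below every siLuc library, which is the case for 5.66% of tested genes. The mean was 8.53-fold lower in siYap (log2 fold change -3.11 ± 0.41 SE, adjusted p = 9.20e-05). The level was low throughout, with 5 to 22 fragments per siYap library and 65 to 196 per siLuc library. The file names carry a code that starts with 6, 7 or 8, which may be a batch. Within these digits the difference of Lif was -3.11, -2.89 and -3.59 in log2 CPM. Digit 8 holds 1 library of each group, siYap replicate 5 and the male siLuc replicate 8. Sex and treatment therefore cannot be told apart within digit 8, for any gene.

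Il6 (chromosome 5, 30013114 to 30019975) was close to the limit of detection. There were 12 fragments over the 5 siYap libraries and 99 over the 8 siLuc libraries. Levels were 0.320, 0.0306, 0, 0.102 and 0.0323 FPKM in siYap replicates 1, 2, 3, 4 and 5, against a lowest value of 0.0957, a median of 0.349 and a highest of 0.643 FPKM in siLuc. siYap replicate 3 held 0 fragments, and a count of 0 allows up to 3. The groups overlapped through siYap replicates 1 and 4. The difference in mean FPKM of -0.277 had p = 0.0256 in an exact permutation test (two-sided), added after seeing the data. The same exact test gave p = 0.0525 without siYap replicate 2 or 5 and 0.0586 without siYap replicate 3.

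Osm (chromosome 11, 4236785 to 4241026), which lies near Lif on the chromosome and is a product of macrophages, neutrophils and T cells, did not pass the test. Its levels were 0.472, 0.111, 0.453, 0.176 and 0.134 FPKM in siYap replicates 1, 2, 3, 4 and 5 and 0.0138 to 0.400 FPKM in siLuc, with a median of 0.181. siYap replicates 1 and 3 lay above all siLuc libraries and the other siYap libraries lay among them. The log2 fold change was 0.425 ± 0.57 (95% interval -0.80 to 1.65, adjusted p = 0.598), and without siYap replicates 1 and 3 together it was -0.55 (adjusted p = 0.615).

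Neutrophil and macrophage markers differed between the groups, and in tumour RNA fewer cells of a type and less RNA per cell cannot be told apart. The counts in this and all later lists stand beside 16.0% of all tested genes called higher and 14.8% called lower. Of 10 neutrophil markers 9 rose and none fell. Their summed level was 175 to 1319 FPKM in siYap and 38.95 to 213 FPKM in siLuc libraries, with Ltf (lactoferrin) and Ngp, both granule proteins, at log2 fold changes of 3.29 and 3.36. Without siYap replicate 1, the highest in neutrophil markers, Ltf was at 2.63 and Ngp at 2.61. Of 13 macrophage markers 1 rose and 6 fell, with sums of 151 to 242 FPKM in siYap and 263 to 504.5 FPKM in siLuc. The macrophage surface receptor Emr1 (F4/80) fell to 13.04 ± 4.59 FPKM in siYap, against 29.8 ± 8.04 FPKM in siLuc, and the complement component C1qa fell by 0.91 on the log2 scale. The single macrophage riser was Cd163 (log2 fold change 0.88, adjusted p = 0.0212 by edgeR), named after its value was seen. Its call was lost without siYap replicate 2 or 3, which left 0 risers, and 2 rose without siLuc replicate 1. No marker of either list was at 0 in all libraries. The part of these cells in the levels of Lif, Il6 and Osm was not tested.

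Other cell types were followed in the same way. Of 12 lymphocyte markers 11 were tested, of which 1 rose (Gzma, granzyme A, log2 fold change 1.28) and 1 fell (Cd3g, of the T cell receptor complex, -1.43, a call lost without any one of 9 libraries, with adjusted p of 0.0641 to 0.105), with sums of 7.89 to 16.03 FPKM in siYap and 5.96 to 25.8 FPKM in siLuc. Without siLuc replicate 7, 2 lymphocyte markers rose, and without siLuc replicate 8, 2 fell. Of 9 endothelial markers 3 rose, among them Lyve1 (2.17) and Vwf (0.97), and 1 rose without siYap replicate 5, with sums of 49.6 to 118 FPKM in siYap and 42.5 to 113 FPKM in siLuc. Of 11 stellate cell and fibroblast markers 3 rose, among them the collagen genes Col1a1 (2.17) and Col1a2 (1.31). Without siYap replicate 1 only 1 of the 11 rose, with Col1a2 at 0.735 (adjusted p = 0.127). Their sum was highest in siYap replicate 1 at 760 FPKM, within a range of 189 to 760 FPKM in siYap, and ran from 71.7 to 380 FPKM in siLuc. Of 8 cholangiocyte markers 3 fell, among them Pkhd1 (-1.78) and Epcam (-2.30), with sums of 13.5 to 40.8 FPKM in siYap and 40.98 to 96.04 FPKM in siLuc. Among hepatocyte markers the secreted proteins Rbp4 (1.10) and Serpina1c (-1.70) had the smallest p. The hepatocyte counts varied from 1 to 5 higher and from 1 to 3 lower without single libraries. The part of these cell types in the receptor levels was not tested.

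Of the receptor chains, those for IL-6 and Lif rose. Il6ra (chromosome 3, 89869324 to 89913196), which gives a cell its response to IL-6, stood at 7.53, 9.07, 17.9, 11.9 and 11.02 FPKM in siYap replicates 1, 2, 3, 4 and 5. In siLuc it ran from 1.52 to 7.58 FPKM with a median of 4.58. The lowest siYap library, replicate 1, lay just below the highest siLuc library, the male replicate 8, and the other 4 siYap libraries lay above all siLuc libraries. The mean was 2.53-fold higher in siYap (log2 fold change 1.37 ± 0.27, adjusted p = 0.002025). Taken digit by digit (6, 7, 8), the difference was 1.598, 1.75 and 0.55 in log2 CPM.

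Lifr (chromosome 15, 7090610 to 7197489) is abundant in hepatocytes, and its RNA in mouse liver also encodes a soluble form. It was at 55.5, 38.3, 63.7, 88.5 and 75.3 FPKM in siYap replicates 1, 2, 3, 4 and 5 and at 23.1 to 40.97 FPKM in siLuc, with a median of 32.01. siYap replicate 2 lay within the siLuc range and the other 4 above it. The mean was 2.03-fold higher in siYap (log2 fold change 0.97 ± 0.17, adjusted p = 0.000885), with differences of 0.66, 1.05 and 1.64 within the digits 6, 7 and 8. The ligand and its receptor thus moved in opposite directions, Lif down and Lifr up.

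Il6st (chromosome 13, 112464070 to 112506860), the chain that all these receptors share, was at 63.6, 37.1, 49.7, 45.7 and 39.96 FPKM in siYap replicates 1, 2, 3, 4 and 5 and at 18.1 to 41.9 FPKM in siLuc, with a median of 35.2. The highest library, siYap replicate 1, was also the one with the highest stellate cell sum, and siYap replicates 2 and 5 lay within the siLuc range. Il6st rose 1.43-fold (log2 fold change 0.55 ± 0.20, adjusted p = 0.0484), close to the threshold. It missed the threshold when siLuc replicate 1, 2, 3, 4, 6 or 8, or siYap replicate 1, 3 or 4, was left out, with edgeR's adjusted p at 0.05145 to 0.162. Without siYap replicates 1 and 3 together the log2 fold change was 0.305 (adjusted p = 0.338).

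Osmr (chromosome 15, 6813568 to 6874968) lies near Lifr and encodes its counterpart for oncostatin M. It was at 8.52, 4.24, 4.42, 4.44 and 5.83 FPKM in siYap replicates 1, 2, 3, 4 and 5 and at 5.68 to 10.97 FPKM in siLuc, with a median of 8.36. siYap replicate 1 lay near the siLuc median and siYap replicate 5 just above the lowest siLuc library, replicate 8. Osmr fell 1.505-fold (log2 fold change -0.57 ± 0.21, adjusted p = 0.0466). It missed the threshold when siLuc replicate 1, 3, 4, 5, 6 or 7, or siYap replicate 2, 3, 4 or 5, was left out (adjusted p from 0.0534 to 0.123), and without siYap replicate 1 the log2 fold change was -0.805 (adjusted p = 0.00510). Within the digits 6, 7 and 8 the difference was -0.41, -0.97 and 0.05. The sign thus changed in the single pair of libraries of digit 8, which also differs in sex.

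The balance of the alternative partners of gp130 was also compared as a ratio within each library, which library scaling cannot move. The log2 ratio of Osmr to Lifr in FPKM was -2.70, -3.175, -3.85, -4.32 and -3.69 in siYap replicates 1, 2, 3, 4 and 5, with a mean of -3.55 ± 0.62 (SD). In siLuc it ran from -2.40 to -1.38, with a mean of -1.95 ± 0.36. Every siYap library lay below every siLuc library. The difference of -1.59 had a two-sided exact permutation p of 0.000777, the smallest that 5 against 8 libraries can give. Adjusted over the 2 ratios tested, this permutation p was 0.00155. Lifr and Osmr were each called alone and chosen with earlier results known, so the ratio is not independent of those calls. Libraries share numbers in the file names, 3 in siYap and 5 in siLuc, which may be animals. Over these the difference was -1.6 (exact permutation p = 0.0179, the smallest these numbers can give).

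**Figure D2:**
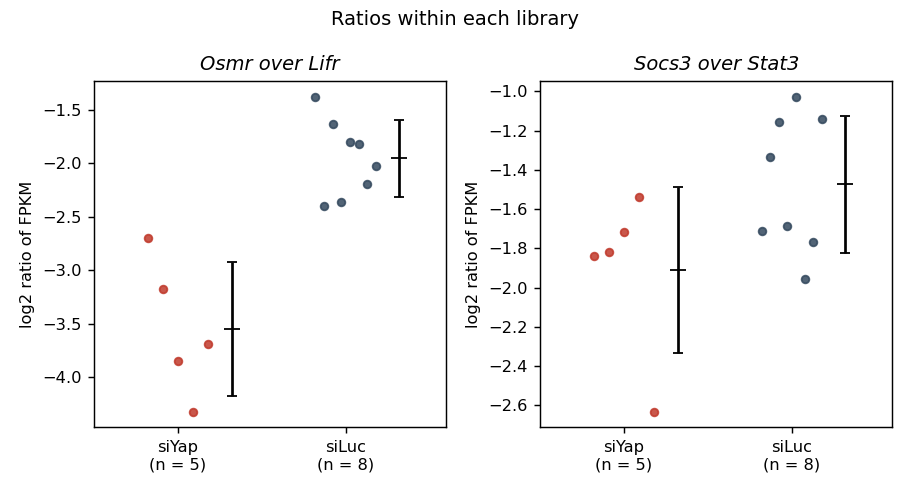
Log2 ratio of FPKM (vertical axis, not from 0) of Osmr to Lifr (left) and of Socs3 to Stat3 (right) in siYap (red) and siLuc (dark) libraries, 1 point per library, with mean and SD. The Osmr to Lifr ratios do not overlap between the groups, while those of Socs3 to Stat3 do, with siYap replicate 5 lowest.

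Jak1 (chromosome 4, 101151974 to 101265282), the main kinase bound to gp130, rose in siYap tumours. It was at 51.2, 45.2, 52.8, 49.2 and 53.8 FPKM in siYap replicates 1, 2, 3, 4 and 5, and in siLuc libraries at 27.4 at the lowest, 37.9 at the median and 42.7 FPKM at the highest. The groups did not overlap, and 5.57% of tested genes had all siYap above all siLuc libraries. The rise was 1.37-fold (log2 fold change 0.455 ± 0.13, adjusted p = 0.0137). The adjusted p was 0.0535 without siYap replicates 1 and 3 together. The gene Raver2 overlaps Jak1 in RefSeq and was at 0.818 and 0.663 FPKM in siYap and siLuc.

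Stat3 (chromosome 11, 100886806 to 100939594) did not differ beyond the spread of the libraries. It was at 24.99, 31.8, 37.1, 33.1 and 34.9 FPKM in siYap replicates 1, 2, 3, 4 and 5, and between 25.1 and 38.2 FPKM in siLuc with a median of 29.6. siYap replicate 1 was below all siLuc libraries and the others among them. The log2 fold change was 0.12 ± 0.12, with a 95% interval of -0.14 to 0.38 and an adjusted p of 0.489.

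Socs3 (chromosome 11, 117966079 to 117970336), a direct Stat3 target, did not pass the test either. The window shown above for Socs3 (117969317 to 117969616) lies inside this span, so its start site may not be the only one. Socs3 was at 6.98, 8.996, 11.3, 11.4 and 5.62 FPKM in siYap replicates 1, 2, 3, 4 and 5, and at 7.41 to 15.9 FPKM with a median of 11.6 in siLuc. siYap replicates 1 and 5 lay below the siLuc range. The log2 fold change was -0.33 ± 0.22 (95% interval -0.80 to 0.15, adjusted p = 0.278). Within the digits 6, 7 and 8 the difference of Socs3 was -0.35, 0.06 and -1.01 in log2 CPM, so the sign changed in digit 7. The log2 ratio of Socs3 to Stat3 averaged -1.91 ± 0.42 in siYap and -1.47 ± 0.35 in siLuc. The difference of -0.44 had a two-sided exact permutation p of 0.0653, also 0.0653 adjusted over the 2 ratios. Without single libraries the exact permutation p ran from 0.0328 (without siLuc replicate 6) to 0.192 (without siYap replicate 5, the lowest in this ratio, where the difference was -0.26), and it was under 0.05 also without siYap replicate 4 (0.0444). Over the file-name numbers it was 0.0357.

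By level per transcript length, the signal chain was far above the ligands Il6, Osm and Lif. In siYap tumours the order of mean FPKM was Lifr (64.3), Jak1 (50.4), Il6st (47.2), Stat3 (32.4), Il6ra (11.5), Socs3 (8.85), Osmr (5.49), Osm (0.269), Il6 (0.0969) and Lif (0.0869). In siLuc it was Jak1 (36.8), Il6st (32.97), Lifr (31.7), Stat3 (30.3), Socs3 (11.25), Osmr (8.27), Il6ra (4.545), Lif (0.741), Il6 (0.373) and Osm (0.207). Neighbours that exchanged places between libraries were Lifr, Jak1 and Il6st, Socs3 and Osmr, and Il6 and Lif in siYap. In siLuc they were the 4 most abundant genes, Socs3 with Osmr, Osmr with Il6ra, and the 3 ligands. Il6ra lay below Osmr in 7 of 8 siLuc libraries and its mean was above that of Osmr and Socs3 in siYap.

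The other ligands of the family differed in level, and Ctf1 averaged above Il6, Osm and Lif in both groups. Of 9, 6 were tested and none was called, with a median log2 fold change of -0.06. Clcf1, a cardiotrophin-like cytokine, was at 0.770 ± 0.528 FPKM in siYap and 1.52 ± 0.718 FPKM in siLuc (log2 fold change -0.87, adjusted p = 0.250). Il11 was at 0.534 and 0.461 FPKM, Ctf1 at 2.66 and 2.89 FPKM and Ebi3, a subunit of IL-27, at 0.438 and 0.452 FPKM in siYap and siLuc. Il31 was listed at 0 in all libraries. Of the other receptors, 5 were listed, 4 were matched and 2 were tested. Il11ra1, the receptor of IL-11, rose to 6.65 ± 1.10 FPKM in siYap, against 4.525 ± 1.004 FPKM in siLuc (log2 fold change 0.61, adjusted p = 0.00761). The mouse genome carries near-identical copies of this gene, so its value is uncertain. Il27ra was not called, at 0.912 and 0.825 FPKM.

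Of the 9 other Jak and Stat genes, all tested, 3 rose, 1 fell and 5 were not called, with a median log2 fold change of -0.05. Among all tested genes 16.0% rose and 14.8% fell. Stat5b, the growth hormone effector of hepatocytes, rose to 9.48 ± 2.03 FPKM in siYap, against 6.76 ± 0.606 FPKM in siLuc (adjusted p = 0.00426). Jak3, a kinase of blood cells, rose to 3.045 ± 1.38 FPKM in siYap, against 1.61 ± 0.370 FPKM in siLuc (adjusted p = 0.01145, and 0.0511 without siYap replicate 3). Stat5a was at 2.29 ± 0.873 and 1.599 ± 0.174 FPKM (adjusted p = 0.0397), and lost its call without any one of 9 libraries, with an adjusted p of 0.157 without siYap replicate 3 and 0.0519 to 0.0642 without siYap replicates 1 or 4 or siLuc replicates 1, 3, 4, 6, 7 or 8. Jak2, which also binds gp130, fell to 15.5 ± 1.82 FPKM in siYap, against 22.3 ± 4.05 FPKM in siLuc (adjusted p = 0.0144), opposite in direction to Jak1. Without siYap replicate 3, the highest in Jak3 and Stat5a, 1 of the 9 rose.

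**Figure D3:**
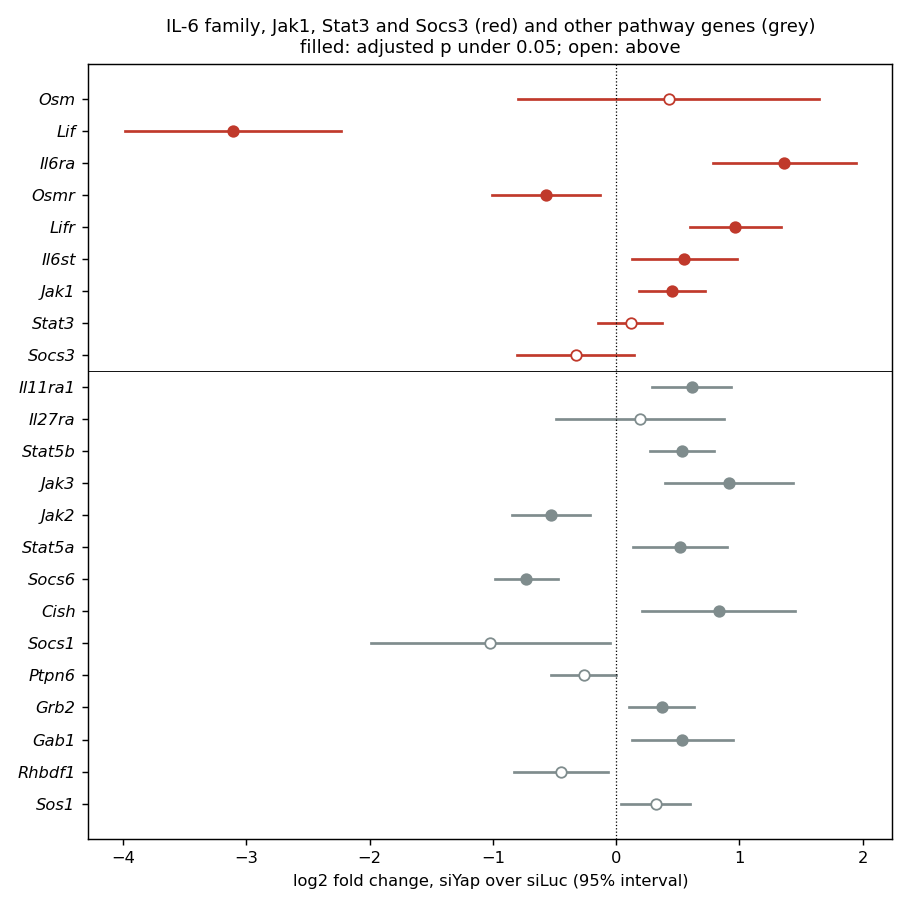
Log2 fold change of siYap over siLuc (horizontal axis) with its 95% interval for the 9 tested genes of the family (red) and for the other receptors, kinases, Stat factors, inhibitors and adaptors named in the text (grey). Filled points passed an adjusted p of 0.05. The interval of Lif lies between -3.99 and -2.23 and those of Stat3 and Socs3 include 0.

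Of the 15 inhibitors of Jak and Stat signalling beside Socs3, 14 were tested, 1 rose, 1 fell and 12 were not called (median log2 fold change -0.03). Socs6, a relative of Socs3 that acts on insulin and Kit receptors, fell to 10.5 ± 1.42 FPKM in siYap, against 17.2 ± 1.66 FPKM in siLuc (log2 fold change -0.73, adjusted p = 0.000553). All its siYap libraries lay below all siLuc libraries, the case for 5.66% of tested genes. Cish, a Stat5 target, was at 2.53 ± 1.46 and 1.46 ± 0.402 FPKM in siYap and siLuc (adjusted p = 0.0416). It was highest in siYap replicate 3, at 5.08 FPKM, and its adjusted p without that library was 0.206. It lost its call also without siYap replicate 1 or 5 or siLuc replicate 1, 2, 5, 6, 7 or 8 (0.0516 to 0.0675). Socs1 (log2 fold change -1.02, adjusted p = 0.0992) and the phosphatase Ptpn6 (-0.26, 0.121) did not pass. The count of fallers was 2 without siYap replicate 1 or siLuc replicate 8.

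Among 10 genes of receptor shedding and of the Shp2-Ras branch, 2 rose, none fell and 8 were not called (median 0.15). The adaptors Grb2 (log2 fold change 0.37, adjusted p = 0.0343) and Gab1 (0.54, 0.0460) were the 2 called. Both lost the call without siYap replicate 1, 2 or 3 or siLuc replicate 6 or 8, Grb2 also without siLuc replicate 5, and Gab1 also without siYap replicate 4 or siLuc replicate 1, 2, 3 or 4. Their adjusted p then lay at 0.0505 to 0.180, and 1 gene of the list fell without siYap replicate 3 or siLuc replicate 7. The shedding regulator Rhbdf1 (-0.45, 0.0711) and the Ras activator Sos1 (0.32, 0.0759) did not pass.

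Genes listed as Stat3 targets were called in both directions, in shares near those of all genes. Whether each listed gene, Tat among them, responds to Stat3 in these tumours was not tested. Of 25, 5 rose, 4 fell and 16 were not called, with a median log2 fold change of -0.002. The shares called, 5 and 4 of 25, stand beside 16.0% and 14.8% of all genes. Tat, the tyrosine aminotransferase of hepatocytes, rose to 409 ± 29.9 FPKM in siYap, against 139.5 ± 36.4 FPKM in siLuc (log2 fold change 1.56, adjusted p = 3.86e-05). Bcl2l1, which encodes the survival protein Bcl-xL, rose to 12.2 ± 2.63 FPKM in siYap, against 6.19 ± 0.659 FPKM in siLuc (adjusted p = 4.38e-05). Icam1, an adhesion molecule, fell to 19.6 ± 5.85 FPKM in siYap, against 36.6 ± 6.36 FPKM in siLuc (adjusted p = 0.0006495), and the early response factor Fos fell to 1.23 ± 0.434 FPKM, against 3.43 ± 0.952 FPKM (adjusted p = 0.00151). Cebpb, Fgl1 and Lcn2 were the other risers and Junb and Birc5 the other fallers, named to complete the counts after their values were seen. Their log2 fold changes were 0.90, 1.24, 1.15, -0.66 and -0.87. Lcn2 lost its call without siYap replicate 5 (adjusted p = 0.0578) and Birc5 without siYap replicate 2, 3, 4 or 5 or siLuc replicate 2, 5, 6 or 8 (0.0518 to 0.08505).

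Of 21 genes listed as acute phase proteins of the IL-6 type, 4 rose, 1 fell and 16 were not called (median 0.24). Over all tested genes 16.0% were called higher and 14.8% lower. Whether each listed gene, Saa4 and A2m among them, responds to IL-6 in mouse liver was not tested. Saa1 and Saa2, the serum amyloids, rose 30.02-fold and 32.8-fold, Orm2, an orosomucoid, 24.8-fold, and Saa4 3.26-fold, with adjusted p of 0.000199, 0.000397, 0.000536 and 0.000193. The size of these rises varied with siYap replicate 5. Without it, the ratio of mean FPKM was 20.4-fold for Saa1, 20.05-fold for Saa2 and 12.5-fold for Orm2, and without siLuc replicate 4 it was 37.4-fold for Orm2. Saa2 ran from 131 to 4466 FPKM in siYap and from 16.3 to 149.6 FPKM in siLuc, so its groups overlapped. Saa1, Saa4 and Orm2 had every siYap library above every siLuc library, the case for 5.57% of tested genes. Saa1 with Saa2 and Orm2 with Orm1 are near-identical pairs, so their split is uncertain. The fibrinogen chain Fgb fell by 0.74 on the log2 scale (adjusted p = 0.0261), and its adjusted p was 0.0580 without siYap replicate 3 and 0.0542 without siYap replicate 4. Without siYap replicate 1 or 5 the list held 2 and 3 fallers. The log2 fold changes of the 16 not called ran from -0.74 (A2m, adjusted p = 0.458) to 1.74 (Orm1, adjusted p = 0.0554), both named as the ends of the range after their values were seen.

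In FPKM, Socs3 and Saa1 ran in opposite order over the siYap libraries, a pattern noticed in the data and not tested. Saa1 was at 2992, 2013, 1005, 400.0 and 136 FPKM in siYap replicates 5, 1, 2, 3 and 4, in which Socs3 was at 5.62, 6.98, 8.996, 11.3 and 11.4 FPKM. The full order of Socs3 depended on the FPKM scaling. As a share of library fragments, Socs3 was higher in siYap replicate 1 (616 of 23637021) than in replicate 2 (838 of 33557410). It was likewise higher in siYap replicate 3 (920 of 25801886) than in replicate 4 (956 of 32151205). siYap replicates 1 and 5, the highest in Saa1, were also the highest in summed neutrophil markers, at 1319 and 1093 FPKM. In siLuc libraries no such order was seen, since the highest Saa1 (108 FPKM, replicate 4) went with a Socs3 level of 11.85 FPKM and the lowest Saa1 (13.6 FPKM, replicate 8) with 11.4 FPKM.

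**Figure D4:**
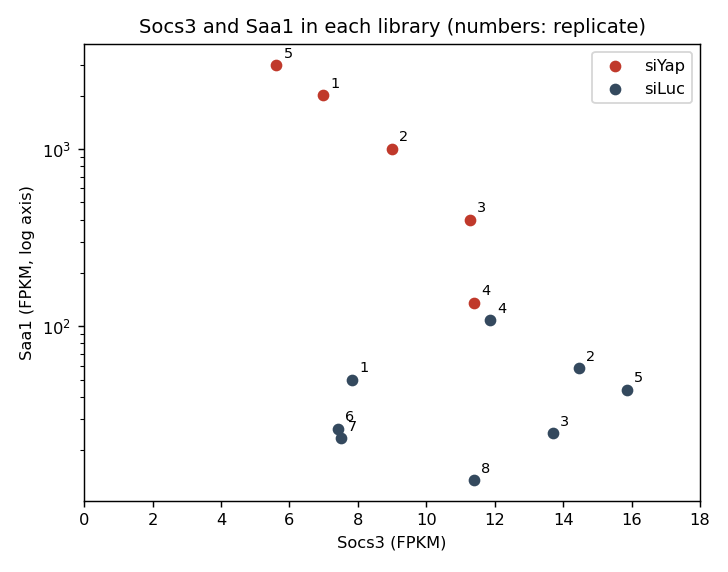
Saa1 (vertical log axis, FPKM) against Socs3 (horizontal axis, FPKM) in siYap (red) and siLuc (dark) libraries, with the replicate number beside each point. The 5 siYap points fall from 2992 FPKM of Saa1 at the lowest Socs3 to 136 FPKM at the highest, and the siLuc points lie at 13.6 to 108 FPKM of Saa1.

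The genes whose levels followed Stat3, Socs3 and Osmr most closely were sought among tested genes averaging 5 FPKM or more, by Pearson's r of log2 CPM after subtracting each group's mean, over the 13 libraries. These values describe variation between libraries, which also share depth and cell makeup. Each is picked as one of the highest among all those genes, which by itself gives high values. How high they would be by chance was not tested. Stat3 was closest to Selrc1 (r = 0.87), Mecr (0.85), Car3 (0.82) and Emp2 (0.81). Socs3 had lower values, with Bmf (0.77), Dock4 (0.77), Smarcd2 (0.77) and Zfyve1 (0.76). Osmr was closest to Gas2 (0.92), Il1rn (0.91), Shisa5 (0.88) and Aspg (0.88). Il1rn, the IL-1 receptor antagonist, is itself in the acute phase list and did not pass the test, at 7.96 ± 4.47 FPKM in siYap and 7.90 ± 4.18 FPKM in siLuc (adjusted p = 0.944).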

How the data were processed

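RNA of 13 tumour samples (5 siYap, 8 siLuc) was sequenced from ScriptSeq Complete Gold libraries on a HiSeq2500, per the labels' protocols. Trimmomatic 0.30, TopHat2 2.0.8, Cufflinks and Cuffdiff 2.1.1 with build mm10 are named in the submitters' processing notes. For their settings, the annotation, strand and multiply matching reads, the answer is not given in the sources used here. Per the file headers, the authors deposited raw fragments per gene, which are estimated counts without scaling (97.6% to 98.0% of values per library within 1e-06 of a whole number). The authors also deposited FPKM values, scaled by Cuffdiff. The replicate index of the siYap tables has gaps, so that scaling may have used libraries not analysed here. A table of the whole series repeats the FPKM and was not used. Genes marked as too deep (3) were left out, and none of the 10 genes carried a failure mark.

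Estimated counts were rounded and fitted over all genes with edgeR 4.0.16 in R 4.3.3 (TMM, default filter by group, robust quasi-likelihood F test, siYap against siLuc, no covariates), with Benjamini-Hochberg adjustment over 15132 genes and a threshold of 0.05. The fit was tested on simulated data. Standard errors are the fold change over the root of F. Ratios and Il6 were tested by exact permutation of libraries. Alternatives used DESeq2 1.42.0, limma 3.58.1 on log2(FPKM + 1) and log2(FPKM + 0.1), other scalings and filters, counts summed per file-name number, the digit of the file code, the replicate number as a block, and each library left out. Leaving out siYap replicates 1 and 3 together, the Il6 test and the GGAATG search were added after seeing the data.

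The genes and lists were chosen with earlier results of these data known. Named genes were the 10, Yap1, the 4 genes of smallest p per list (2 per cell type list) and the 4 closest in level to Stat3, Socs3 and Osmr, passing over Rik and Gm names. Not every gene so chosen is reported here, and the next in order then took its place. Within each group, counts of every pair of libraries differed beyond sampling noise, with chi-square over degrees of freedom at 34.8 or more. Positions are RefSeq's on GRCm38, the assembly of mm10. Floors cover counting error only.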

Additional observations from a re-analysis of the deposited data

Results flagged for a closer look

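A library far from the others of its group was found for 9 of 106 group-wise checks of the genes and ratios named. Chance gives about 1 in 20 for normally distributed values. Whether these values, mostly FPKM without a log, are so distributed was not tested. The log2 ratio of Socs3 to Stat3 was -2.63 in siYap replicate 5, against -1.84 to -1.54 in the other siYap libraries. siYap replicate 3 was highest in Stat5a (3.795 FPKM, next 2.23) and Cish (5.08 FPKM, next 2.31), and siYap replicate 1 in Fos (1.97 FPKM, next 1.18). Orm2 was highest in siYap replicate 5 (4069 FPKM, next 1236) and in siLuc replicate 4 (184 FPKM, next 58.4), which was also highest in Saa1 (108 FPKM, next 58.2). In siLuc, Ctf1 was highest in replicate 1 (5.125 FPKM, next 3.43) and Grb2 lowest in replicate 5 (5.86 FPKM, next 7.25).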

How the results depend on the processing

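Il6ra and Lifr passed the threshold in all 25 alternatives and Lif in the 23 that tested it, with log2 fold changes of 1.17 to 1.62, 0.88 to 1.11 and -3.94 to -0.67, the last on log2(FPKM + 1), which shrinks low genes. Jak1 passed in 23 of 25, Osmr in 11 and Il6st in 8, and Osm, Stat3 and Socs3 in none. The count of risers, 4, was 3 with upper-quartile scaling, no filter on low counts, each limma fit or counts summed per file number. It was 2 with the replicate block and without siYap replicates 1 and 3 together, and 3 to 4 without single libraries. The count of fallers, 2, was 1 with upper-quartile scaling, a mean count of at least 50, limma with the filter at either pseudocount or the digit as a term. It was 1 to 3 without single libraries. With DESeq2, no filter on low counts, limma without the filter, or siYap replicates 1 and 3 both left out it was 3, with Il6 among the fallers. With counts summed per file number the 2 were Lif and Il6, while Osmr was not called (edgeR adjusted p = 0.0583). Calls over all genes, 4668, fell to 2325 with the replicate block, 2984 without both siYap libraries, and 3325 to 4633 without single libraries. Where Il6 was tested, its adjusted p was 0.0132 with DESeq2 and 0.0447 without a filter, within 0.00817 to 0.0702 over all alternatives that kept it. The Osmr to Lifr ratio was -1.63 with the replicate block (exact permutation p = 0.0625, the smallest that 5 pairs allow) and -1.805 to -1.40 without single libraries. That of Socs3 to Stat3 was -0.61 per file number, -0.53 with the replicate block (exact permutation p = 0.188) and -0.53 to -0.26 without single libraries. Without siYap replicates 1 and 3 together Osm turned to -0.55 and Ctf1 to 0.046. Ebi3, at -0.048, was at 0.181 with the replicate block and ran from -0.309 to 0.143 without single libraries, above 0 without siYap replicate 2, 4 or 5 or siLuc replicate 4, 7 or 8. The cause of these changes was not tested. Whether the replicate numbers pair the samples is not in the labels. In log2 CPM, the deviations of same-numbered libraries from their group means correlated at -0.12 to 0.13, which does not settle it. In both groups replicates 1 and 2 carried digit 6 and replicates 3 and 4 digit 7. Of the counts in the other lists, recomputed under each alternative, 588 stayed within 1.5 times and 112 moved further. Low fragment counts limit Il6, Osm and Lif.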
